A study of Homo sapiens with 6 samples.

Results

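Zinc finger gene clusters of chromosome 19 were examined in 5 lists of H3AcK9 peaks, where H3AcK9 is histone 3 acetylated at lysine 9. The clusters were taken as 3 fixed intervals in hg19 coordinates, 1 at 19p12 (chr19:20000000-24600000) and 2 at 19q13.4, a proximal one (chr19:52400000-53900000) and a distal one (chr19:56000000-58900000). A peak belonged to the clusters if it shared at least 1 base with an interval, and peaks sharing a base with the ERV-V1/V2 interval (chr19:53510000-53560000) were left out. Of the 3983296 peaks in all lists, 23251 were members, 141955 lay elsewhere on chromosome 19, and 197 were left out. The rule uses position alone, but it was set with earlier results of these data known, among them the higher values of the ERV-V1/V2 interval after treatment.

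All samples came from the ovarian carcinoma line SKOV3 WT. Cells were left untreated or were given vorinostat or romidepsin at 1 times its IC50 for 24 h. Both drugs inhibit histone deacetylases, the enzymes that remove acetyl groups from histones. There was 1 ChIP sample per condition. By the labels the sequencing company split each treated sample, so each drug has 2 peak lists, which were counted as 1 sample. The paper's reporting summary likewise gives 1 ChIP sample per condition and says that each treated one was split into 2. Elsewhere the paper speaks of independent experiments and of biological replicates for its own comparison of peaks. The lists of a drug were not taken as replicates here. Treated values are means over both lists unless they are given by list, no difference between conditions could be tested, and no p-value is given. The 3 input samples enter no result. The lists hold no read numbers, so the depth behind each peak is unknown and may differ between conditions.

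The lists also differ in how finely they resolve peaks. Across all chromosomes the shortest gap between neighbouring peaks was 509 bp in the untreated list, 205 bp in both vorinostat lists and 201 bp in both romidepsin lists, and the narrowest peaks were 127, 51 and 50 bp wide. An untreated peak can therefore span gaps that part treated peaks. Each main value is for this reason given as deposited and at the untreated resolution, for which neighbouring peaks no more than 508 bp apart were joined in all lists and those under 127 bp were dropped, a choice made after seeing the data. Joining counts the filled gaps as covered.

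KRAB zinc finger genes encode repressors that bind DNA through rows of C2H2 zinc fingers and recruit the co-repressor TRIM28 through the KRAB domain. TRIM28 brings in SETDB1, which methylates lysine 9 of histone 3, and many of these proteins silence endogenous retroviruses and other transposons. The genes arose by repeated tandem duplication and stand side by side in large clusters on chromosome 19, so neighbours resemble each other in sequence. Acetylation of the same lysine marks active promoters and enhancers. How reads that match several copies were placed is not given in the sources used here, and its part in the values below was not tested.

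Genes could be named only near human endogenous retrovirus (HERV) loci whose positions are known in both hg19 and hg38, since the annotation used here is of hg38 and no coordinate was converted. Neighbouring pairs of such loci that lie equally far apart in both builds gave 4 stretches. GENCODE release 44 places 22 protein-coding genes in them, of which 16 have a ZNF name. They include ZNF737 and ZNF626 at 19p12, and ZNF611, ZNF600, ZNF28, ZNF468, ZNF320, ZNF888, ZNF816, ZNF160, ZNF415, ZNF347, ZNF665, ZNF677 and ZNF845 in the proximal 19q13.4 interval. The other 6 include the vomeronasal receptor genes VN1R2 and VN1R4.

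The promoters of ZNF66, ZNF419 and ZNF773, all KRAB zinc finger genes, lie inside such loci, and only there could a peak be tied to the start of a gene. Their sequences are shown for that reason. Deposited untreated and treated peaks differ at them, but at the untreated resolution every list covers the whole ZNF66 promoter. Each runs from 250 bases before to 50 after the start in RefSeq (GRCh38.p14), on the plus strand, at chr19:20776054-20776353 for ZNF66, chr19:57487500-57487799 for ZNF419 and chr19:57499688-57499987 for ZNF773. Capitals mark the GC box, searched as GGGCGG on both strands.
ZNF66: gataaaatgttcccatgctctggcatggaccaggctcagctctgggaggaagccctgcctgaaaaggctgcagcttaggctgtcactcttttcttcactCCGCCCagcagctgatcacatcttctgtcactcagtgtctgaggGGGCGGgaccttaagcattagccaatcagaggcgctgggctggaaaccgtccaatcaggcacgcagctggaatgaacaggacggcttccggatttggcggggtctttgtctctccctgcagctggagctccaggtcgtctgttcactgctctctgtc
ZNF419: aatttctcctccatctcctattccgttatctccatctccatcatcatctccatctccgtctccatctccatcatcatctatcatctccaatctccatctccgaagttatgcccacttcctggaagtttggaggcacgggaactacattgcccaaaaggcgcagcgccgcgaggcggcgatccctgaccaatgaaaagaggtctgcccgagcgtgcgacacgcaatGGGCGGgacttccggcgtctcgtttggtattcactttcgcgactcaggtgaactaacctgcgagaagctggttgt
ZNF773: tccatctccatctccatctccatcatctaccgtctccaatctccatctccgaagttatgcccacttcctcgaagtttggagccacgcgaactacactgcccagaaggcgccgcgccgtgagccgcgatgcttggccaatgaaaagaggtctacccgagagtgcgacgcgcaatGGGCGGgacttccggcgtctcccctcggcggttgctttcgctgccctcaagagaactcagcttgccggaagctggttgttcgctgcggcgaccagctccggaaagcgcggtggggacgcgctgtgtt

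The GC box occurred 2 times in the ZNF66 promoter and 1 time in each of the others, and 45.0% of 35116 RefSeq promoters hold at least 1. The letters CCAAT, on either strand, occurred 2 times in each of the 3 promoters and at least 1 time in 34.6% of all promoters. TATAAA, also on either strand, was in none of the 3 and in 11.5% of all. The dinucleotide CG was found 9 times in ZNF66, 21 times in ZNF419 and 30 times in ZNF773, against a median of 14. ZNF419 and ZNF773 were identical at 217 of 300 bases in a global alignment (72.3%), with a longest shared run of 37 bases, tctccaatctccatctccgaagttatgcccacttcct. ZNF66 was identical to each of them at 180 bases (60.0%). Such matches describe the letters and do not show that a factor binds.

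Before treatment, peaks covered the clusters and the rest of the chromosome to a similar extent, at 31.0% of 8.95 Mb and 30.6% of 46.9 Mb. The rest was counted from the first to the last peak without the widest peak-free stretch, at the centromere. GENCODE gives chromosome 19 249 protein-coding genes with a ZNF name, and how many of them lie in the rest was not counted. The rest may hold such genes too, so the comparison is between positions and not between zinc finger genes and other genes. With either drug the clusters were covered less than the rest. Deposited vorinostat peaks covered 24.2% (first list) and 21.2% (second list) of the clusters, and 28.8% and 27.0% of the rest. Deposited romidepsin peaks covered 29.0% and 25.1% of the clusters, and 37.8% and 36.5% of the rest. Every treated list thus had a lower share in the clusters than in the rest, while the untreated shares were alike.

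In covered bases, the clusters had 2776 kb in the untreated list, against 2168 and 1896 kb for vorinostat and 2592 and 2246 kb for romidepsin. These are factors of 0.732 (vorinostat) and 0.871 (romidepsin), beside 0.911 and 1.21 in the rest. The factor in the clusters divided by that in the rest was 0.804 and 0.718. At the untreated resolution the clusters changed by factors of 0.940 and 1.16 and the rest by 1.20 and 1.63, and the ratio was 0.781 and 0.710. Whether covered bases of the clusters were lower or higher than in untreated cells therefore depended on the resolution, and for romidepsin the direction turned. Their position below the rest did not depend on it. Over all 15 alternatives run for each drug, the ratio lay between 0.753 and 0.833 for vorinostat and between 0.576 and 0.912 for romidepsin. These alternatives also varied the lists, the clusters used and the comparison. The upper ends, 0.833 and 0.912, are against the other chromosomes and not against the rest.

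Other chromosomes served as a second comparison, with 19 that had peaks in every list. For vorinostat the factor of a chromosome ranged from 0.843 to 0.943 as deposited and from 1.03 to 1.21 joined, and 0 of the 19 lay below the clusters (0.732 and 0.940). For romidepsin it ranged from 0.873 to 1.09 as deposited, and the clusters (0.871) lay at the low end of this range, with 0 chromosomes below them. In the first romidepsin list alone, however, the clusters had 0.934 and 5 chromosomes lay below them. Joined, the romidepsin range was 1.11 to 1.46, and 2 chromosomes lay below the clusters (1.16), or 7 in the first list and 0 in the second. The rest of chromosome 19 had a higher romidepsin factor than all 19 chromosomes, as deposited (1.21) and joined (1.63). The clusters were thus below the other chromosomes with vorinostat under both readings, whereas with romidepsin they lay near the lower end of their range. Of all covered bases of chromosome 19, the clusters held 16.2% in the untreated list, against 13.8% and 13.0% for vorinostat and 12.7% and 11.6% for romidepsin.

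**Figure D1:**
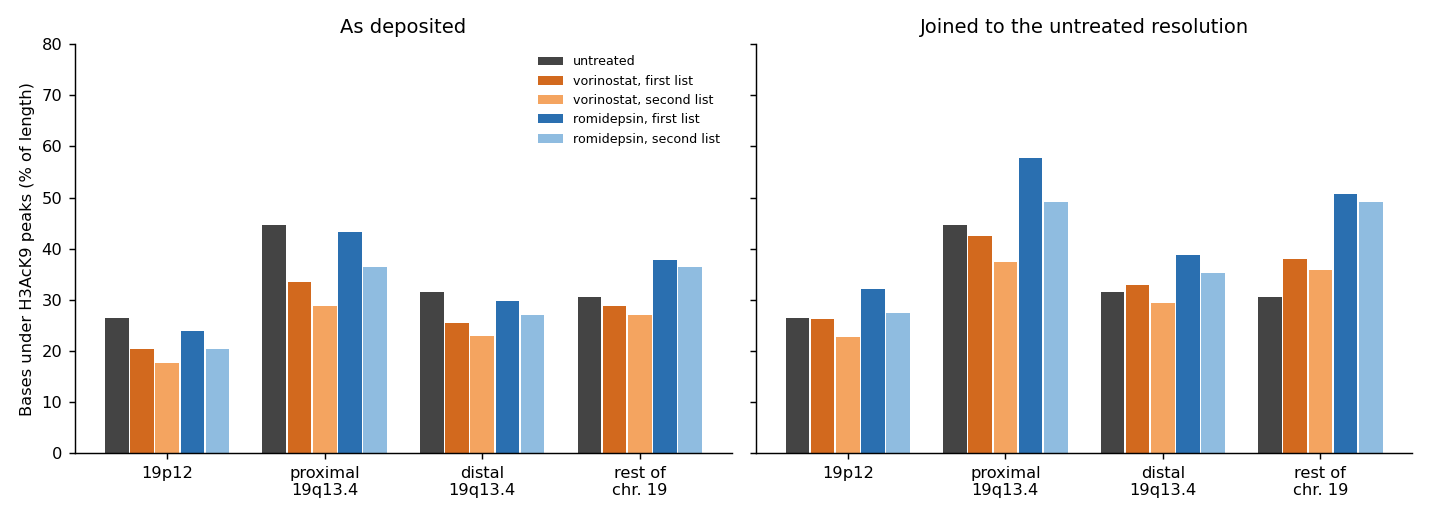
Share of the length under H3AcK9 peaks (%) in each interval and in the rest of chromosome 19, with 1 bar per list, as deposited (left) and joined to the untreated resolution (right). As deposited, all 4 treated lists lie below the untreated bar in every interval. After joining, the romidepsin bars lie above it in every interval, but less far above than in the rest of the chromosome.

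Peak numbers were higher with treatment. The clusters held 2265 untreated peaks, against 5026 and 4809 for vorinostat and 5718 and 5433 for romidepsin, factors of 2.17 and 2.46. In the rest the factors were 2.44 and 2.73. At the untreated resolution the factors in the clusters were 1.06 and 1.07, a setting that both fills gaps and drops narrow peaks. Filling gaps of up to 300 bp alone left factors of 1.76 and 1.87. The clusters' share of the peaks of chromosome 19 was 15.3% in the untreated list (95% Clopper-Pearson interval 14.7 to 15.9%), against 14.1% and 13.6% for vorinostat and 14.3% and 13.7% for romidepsin. As deposited, the upper limits of all 4 treated lists lay below the lower limit of the untreated one. This did not hold after joining: the shares were 14.6% and 14.2% for vorinostat, and 15.9% and 15.6% for romidepsin, the latter above the untreated share with intervals that overlap its own. Such intervals cover counting error only and take peaks as independent. The 2 lists of a drug come from 1 sample, so the intervals do not compare conditions.

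Cluster peaks had a median width of 649 bp in the untreated list, against 246 and 234 bp for vorinostat and 270 and 255 bp for romidepsin. At the untreated resolution the treated medians were 532 and 489 bp, and 649 and 606 bp. In the rest they were then 666 and 627 bp, and 953 and 909 bp, beside 661.5 bp in the untreated list. Mean widths of joined cluster peaks were 1150 and 1028 bp for vorinostat and 1411 and 1245 bp for romidepsin, beside 1227 bp untreated. In the rest, mean widths were 1260 and 1164 bp, and 1851 and 1768 bp, beside 1146 bp. The romidepsin medians of the clusters were thus at or below the untreated one while the means lay above it, and in the rest both lay above. Joined peaks of at least 10 kb numbered 10 in the untreated list of the clusters, against 17 and 14 for vorinostat and 33 and 23 for romidepsin. In the rest the numbers were 35, then 71 and 55, and 283 and 224.

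The 3 clusters differed in their untreated coverage, from 26.4% at 19p12 and 31.5% in the distal interval to 44.6% in the proximal interval of 19q13.4. Covered bases at 19p12 changed by factors of 0.722 and 0.838 as deposited, and 0.927 and 1.13 joined. In the proximal interval it was 0.697 and 0.893, and 0.895 and 1.20 joined. In the distal interval it was 0.770 and 0.901, and 0.988 and 1.17 joined. Under both readings each cluster lay below the rest, and the clusters differed from each other by less than each differed from the rest.

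Along 19p12 the factors were not even. In its first 0.5 Mb, the part farthest from the centromere, peaks covered 49.1% of the length in the untreated list, against 26.4% and 25.1% for vorinostat and 32.2% and 28.8% for romidepsin. The factors were 0.524 and 0.621 as deposited, and 0.670 and 0.807 joined, the lowest of the 9 steps of 0.5 Mb in 19p12 on the joined scale. From 3.5 to 4 Mb into the interval untreated peaks covered 40.9%, and the factors were 0.839 and 1.03, or 1.07 and 1.37 joined. Both stretches were densely covered before treatment, yet their factors differed. In the proximal interval the 3 steps lay close together as deposited, between 0.674 and 0.711 for vorinostat and between 0.880 and 0.915 for romidepsin. Joined, they lay between 0.853 and 0.915 for vorinostat and between 1.17 and 1.22 for romidepsin, where the direction turned. In the distal interval the deposited steps ranged from 0.645 to 0.994 and from 0.760 to 1.09. Both were lowest from 2 to 2.5 Mb, where untreated peaks covered 42.5%. Joined, the distal steps ranged from 0.818 to 1.26 and from 1.00 to 1.42, again lowest from 2 to 2.5 Mb.

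Windows of 100 kb with at least 5000 untreated covered bases were called lower or higher past 1.5-fold, and 84 of 90 windows of the clusters reached this minimum. As deposited, 28 were lower (33.3%) and 3 higher (3.57%) with vorinostat, beside 13.6% and 6.68% of all such windows of chromosome 19, and 23.1% and 6.18% of those on all chromosomes with peaks in every list. With romidepsin 14 were lower (16.7%) and 4 higher (4.76%), beside 4.72% and 20.0% on chromosome 19, and 18.5% and 7.80% on all chromosomes. The share of lower windows exceeded that of chromosome 19 for both drugs, but for romidepsin it was near that of the genome. The rest had lower windows as well, 41 of 425 with vorinostat and 10 with romidepsin.

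After joining few windows were lower. With vorinostat 4 were lower (4.76%) and 5 higher (5.95%), beside 1.77% and 18.9% on chromosome 19. With romidepsin 1 was lower (1.19%) and 13 higher (15.5%), beside 0.982% and 52.5% on chromosome 19. The share of higher windows in the clusters was then below that of the chromosome for both drugs.

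**Figure D2:**
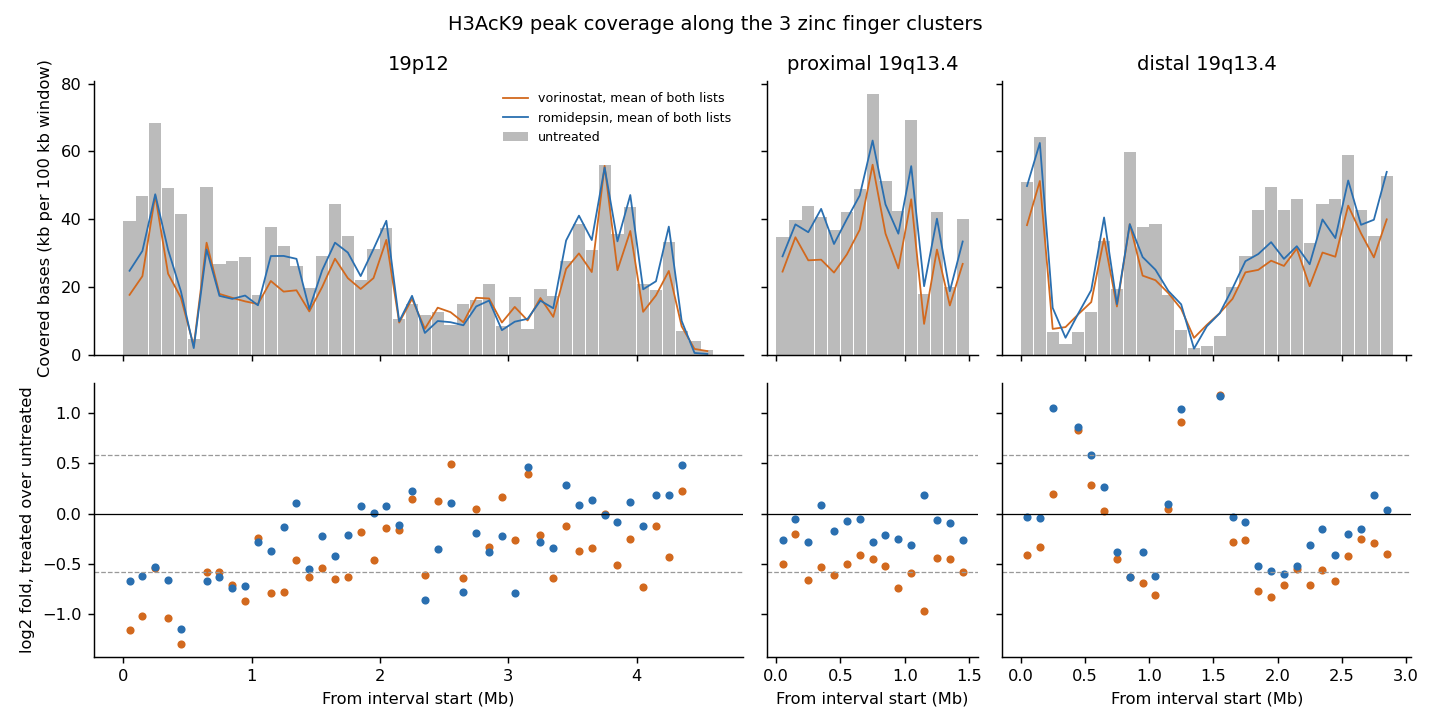
Covered bases per 100 kb window as deposited (top, kb; grey bars untreated, lines the mean of both lists of a drug) and log2 fold of treated over untreated (bottom; dashed lines at 1.5-fold), by distance from the start of each interval. Vorinostat (orange) lies below 0 in all 15 windows of the proximal interval, and the lowest window of 19p12 for each drug (romidepsin in blue) lies in its first 0.5 Mb. The window that holds the ERV-V1/V2 interval is drawn without it.

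The median window of the clusters had a factor of 0.728 (vorinostat) and 0.880 (romidepsin), against 0.889 and 1.20 in 425 windows of the rest. Over all chromosomes with peaks in every list the medians were 0.827 and 0.905. For romidepsin the clusters were thus near the median of the genome. Joined, the medians were 0.924 and 1.20 in the clusters, and 1.18 and 1.60 in the rest. Windows were also compared at like untreated coverage, as deposited, a description chosen after seeing the data. Between 20 and 40 kb covered, the medians were 0.705 and 0.919 in 29 windows of the clusters, and 0.918 and 1.33 in 208 windows of the rest. Between 40 and 60 kb they were 0.674 and 0.837 in 26 windows, against 0.830 and 1.13 in 129. Between 5 and 20 kb, they were 1.03 and 0.940 in 25 windows, against 1.39 and 1.27 in 76. The clusters lay below the rest in each of these classes, and also above 60 kb, where they had only 4 windows.

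**Figure D3:**
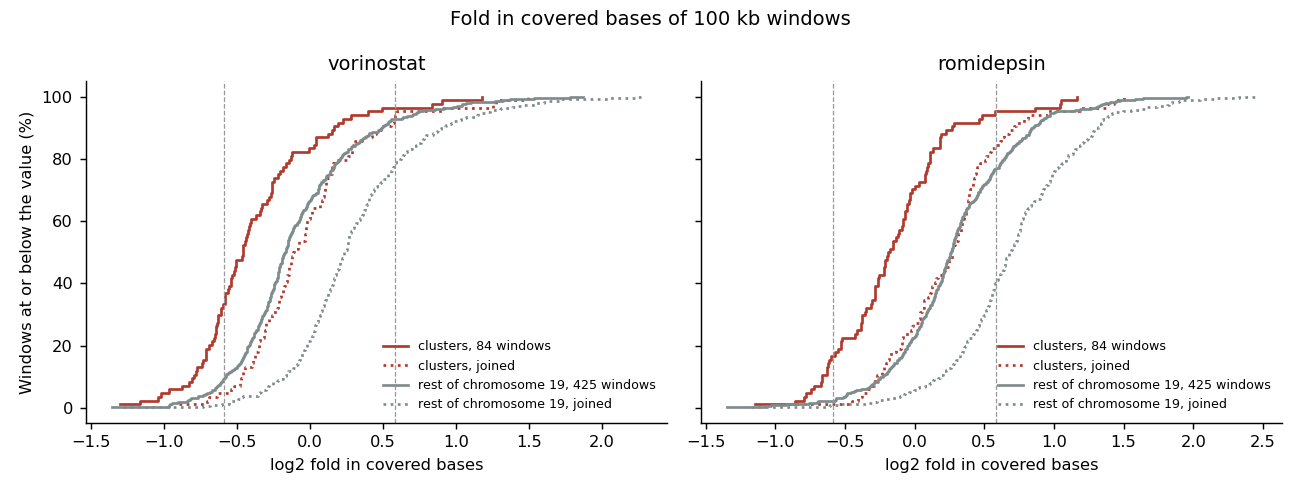
Cumulative share of 100 kb windows (%) by log2 fold in covered bases, for 84 windows of the clusters (red) and 425 of the rest of chromosome 19 (grey), as deposited (solid) and joined (dotted), with dashed lines at 1.5-fold. Joining moves both curves to the right, and the red curve stays to the left of the grey one through the middle of both panels.

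The windows with the lowest factors, averaged over both drugs, were dense in untreated cells. The ranking divides by untreated coverage, so it favours dense windows among the lowest factors and sparse windows among the highest. At 19p12 the window chr19:20400001-20500000 had 41544 covered bases in the untreated list, against 17796 and 15944 for vorinostat and 19093 and 18417 for romidepsin. Its factors of 0.406 and 0.451 remained low when joined, at 0.538 and 0.534. The window chr19:57000001-57100000 in the distal interval had 38552 bases, against 25427 and 18634 for vorinostat and 27991 and 22216 for romidepsin, factors of 0.571 and 0.651, or 0.728 and 0.817 joined. The first of these windows stayed past 1.5-fold under both readings, and the second did not.

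Windows with the highest factors were sparse at 19p12 and in the distal interval, but not in the proximal interval, where both had about as many untreated covered bases as the windows above (39886 and 40642). In the distal interval chr19:57500001-57600000 had 5459 covered bases in the untreated list, against 12840 and 11844 for vorinostat and 13258 and 11289 for romidepsin, factors of 2.26 and 2.25, or 2.82 and 2.83 joined. Also there, chr19:57200001-57300000 had 7235 bases, against 16433 and 10698 for vorinostat and 17298 and 12545 for romidepsin, and factors of 1.87 and 2.06. All 4 treated lists lay above the untreated one in both windows, which had been picked for their high factors. At 19p12 no window was higher past 1.5-fold as deposited.

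Untreated peaks that shared no base with a treated peak of either list were more frequent in the clusters. With vorinostat they were 600 of 2265 (26.5%, 95% interval 24.7 to 28.4%), beside 17.1% over chromosome 19 and 15.4% in the rest. With romidepsin they were 459 (20.3%, 18.6 to 22.0%), beside 11.5% over chromosome 19 and 9.95% in the rest. At the untreated resolution the shares were 30.3% and 23.8% in the clusters, beside 20.0% and 12.9% over chromosome 19. As deposited they were 30.2% and 24.6% at 19p12, 22.7% and 18.3% in the distal interval, and 21.8% and 10.3% in the proximal interval. The proximal share with romidepsin was near the background. Most of these peaks were narrow. Among the 1501 untreated peaks under 1 kb, 37.5% had no vorinostat peak and 29.3% no romidepsin peak, against 22.3% and 14.4% in the rest. Of the 103 peaks of at least 5 kb, 0 lacked a treated peak with either drug.

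Wide untreated peaks were instead met by several deposited treated peaks. Those of at least 5 kb were covered over 67.1% (vorinostat) and 69.6% (romidepsin) of their bases, by 5.27 and 5.78 peaks each. In the rest of the chromosome it was 72.1% and 76.3%, by 5.25 and 5.29 peaks. Joined, they were met by 1.80 and 1.78 peaks each in the clusters and 1.76 and 1.61 in the rest. For untreated peaks under 1 kb, the covered share as deposited was 26.7% and 33.3% in the clusters and 39.3% and 52.4% in the rest.

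**Figure D4:**
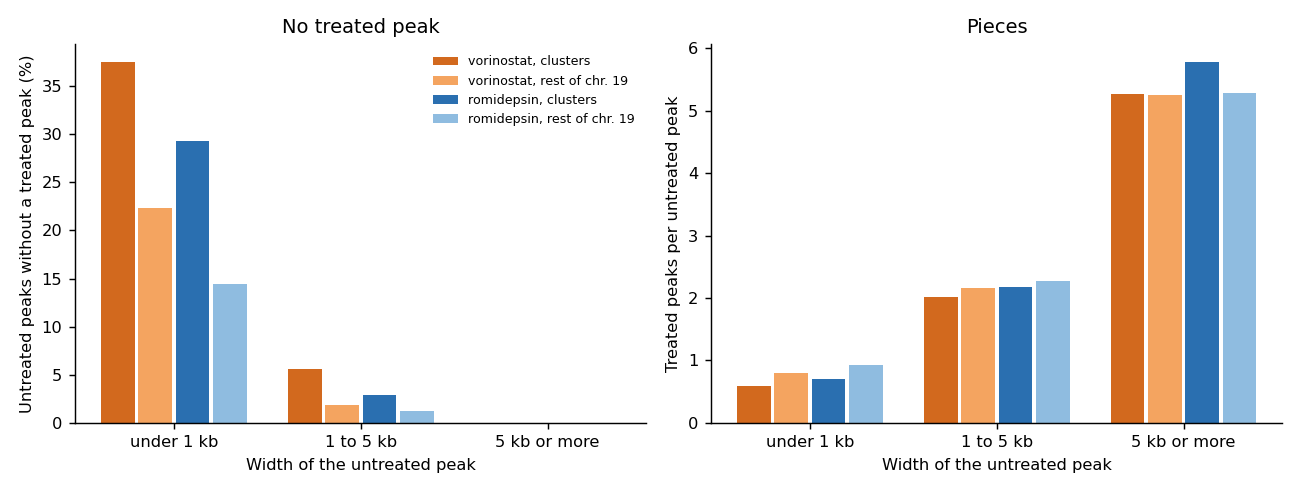
Untreated peaks without a treated peak in either list (left, %) and treated peaks per untreated peak (right, mean of both lists), as deposited, by width of the untreated peak, for the clusters and the rest of chromosome 19. Among peaks under 1 kb the clusters have the higher share without a treated peak, at 37.5% against 22.3% for vorinostat and 29.3% against 14.4% for romidepsin.

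The widest untreated peak of the proximal interval, chr19:53163107-53179723, was 16617 bp long, and 13535 and 12988 of its bases were covered in the vorinostat lists against 13731 and 12183 for romidepsin. At 19p12 the widest, chr19:20271816-20286091, was 14276 bp long, with 10944 and 10318 bases against 10825 and 9304. In the distal interval the widest, chr19:56142504-56157718, was 15215 bp long, with 11536 and 11418 bases against 11551 and 10902. Each of these regions is itself an untreated peak, so a treated list could only equal the untreated value or lie below it. Over the 9 widest peaks, 3 per interval, the factors lay between 0.564 and 0.842 for vorinostat and between 0.608 and 0.789 for romidepsin. Joined, they lay between 0.803 and 0.991, and between 0.822 and 0.970. The lowest of both as deposited was at chr19:53234746-53248835, a peak of 14090 bp that runs into the HML2 locus 4768 beside ZNF600. There the vorinostat lists had 12 and 17 peaks, and the romidepsin lists 16 and 19.

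Treated peaks away from untreated ones were about as frequent in the clusters as over chromosome 19, or somewhat less frequent. Of the cluster peaks, 46.7% and 42.5% in the lists for vorinostat shared no base with an untreated peak, beside 46.6% and 44.0% over chromosome 19. For romidepsin it was 47.5% and 44.4%, beside 48.1% and 46.7%. These shares are near the background or somewhat below it. In the proximal interval, the most densely covered, they were from 31.3% to 36.9%, below the background. Bases under a peak in all 4 treated lists but not in the untreated one made up a smaller share of the clusters (1.80%) than of the rest (4.25%). The widest treated peak without an untreated one was 1952 bp at 19p12 (chr19:23814362-23816313), 1588 bp in the proximal interval (chr19:53842897-53844484) and 2054 bp in the distal one (chr19:58185680-58187733), and at each all 4 treated lists had a peak.

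The lists of a treated sample overlapped only in part. In the clusters the vorinostat lists shared 72.3% of the bases of the first list and 82.6% of those of the second, and the romidepsin lists 72.9% and 84.1%. In the rest of the chromosome it was 79.4% and 84.7%, and 84.0% and 87.0%. The second list of each drug covered less of the clusters than the first, with factors of 0.683 against 0.781 for vorinostat and 0.809 against 0.934 for romidepsin. Stretches of at least 20 kb with no peak in any list numbered 2 at 19p12, the longer of 60.9 kb at chr19:20523350-20584256, and 0 in either interval of 19q13.4.

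HERV loci considered in the clusters numbered 10. The study selected them on these samples, 9 as decreased and 1, 19p12b, as increased, so their directions are not independent evidence. They had 53288 covered bases in the untreated list, against 36290 and 32761 for vorinostat and 46915 and 40931 for romidepsin. The factors were 0.648 and 0.824 as deposited, and 0.855 and 1.13 joined. Covered bases were lower at 9 loci with vorinostat and at 6 with romidepsin. Joined, they were lower at 6 and 4 loci, and higher at 3 and 6.

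At 19p12, the HERVE locus 4641 (chr19:20692820-20701171) lies 17460 bp from ZNF737, a zinc finger gene. A lone untreated peak covered 7632 of its 8352 bases, against 3741 and 3399 for vorinostat and 3797 and 2940 for romidepsin. The factors were 0.468 and 0.441, or 0.474 and 0.638 joined, so it stayed below the untreated value under both readings. The HML6 locus 19p12b (chr19:21968952-21975023), nearest to ZNF43 at 12725 bp, had 2780 bases, against 3609 and 3360 for vorinostat and 3770 and 4163 for romidepsin, factors of 1.25 and 1.43, or 1.70 and 1.72 joined. The stretch from locus 4641 to locus 4649, with ZNF737 and ZNF626, changed by factors of 0.610 and 0.592, or 0.756 and 0.792 joined.

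In the proximal interval, the HERVE locus 4770 (chr19:53401768-53408687) overlaps the gene ZNF888. All of its 6920 bases were covered in the untreated list, against 5321 and 5031 for vorinostat and 5417 and 4851 for romidepsin, and joined vorinostat peaks covered all of it again. No treated list could lie above the untreated value at this locus. The HML2 locus 4776, 479 bp from ZNF525, had 5204 covered bases, against 2763 and 2746 for vorinostat and 3098 and 3291 for romidepsin, factors of 0.529 and 0.614, or 0.690 and 0.967 joined. The HERVH locus 4767 overlaps the gene ZNF83 and had 3521 bases, against 2706 and 2503 for vorinostat and 4611 and 3708 for romidepsin. At this locus the vorinostat lists lay below the untreated value and the romidepsin lists above it as deposited, and the joined factors were 0.931 and 1.60.

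The 3 stretches between these loci, counted without the ERV-V1/V2 interval, gave factors of 0.718 and 0.834 around ZNF611, 0.669 and 0.832 from ZNF600 to ZNF320, and 0.672 and 0.901 from ZNF888 to ZNF845. Joined, they were 0.940 and 1.11, then 0.892 and 1.12, and 0.853 and 1.19. All 3 means were lower with vorinostat under both readings, and with romidepsin the direction turned. Joined, however, the first vorinostat list was close to the untreated one in the first stretch (87489 against 87580 covered bases) and the second (75476 against 76788). It was clearly lower only in the third (155443 against 172781).

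In the distal interval, the locus 4790 (chr19:57998545-58012181), listed as unclassifiable, holds the starts of ZNF419 and ZNF773. Its covered bases were 7153 in the untreated list, against 2961 and 2829 for vorinostat and 4385 and 4815 for romidepsin. The vorinostat factor of 0.405, the lowest of the 10 loci, was 0.581 joined, while for romidepsin 0.643 became 1.13.

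Positions inside the loci 4649 and 4790 were set by the distance from the start of the locus, which has the same length in both builds, so that peaks in hg19 could be laid over the promoters printed above. Equal length does not prove that every base has the same position. Untreated peaks covered all 300 bases of the ZNF66 and ZNF419 promoters and 69 bases of the ZNF773 promoter. Where all 300 were covered, a treated list could only equal the untreated value or lie below it. At ZNF66 the vorinostat lists covered 2 and 2 bases as deposited and the romidepsin lists 89 and 11, but joined peaks of all 4 lists covered all 300. At ZNF419 it was 31 and 25, and 5 and 1. Joined romidepsin peaks covered all 300 bases of the ZNF419 promoter, whereas joined vorinostat peaks still covered 31 and 25. At ZNF773 the treated lists covered 47 and 47, and 24 and 25, with or without joining.

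From here on, starts are those of GENCODE. They lie somewhat upstream of the RefSeq starts of the printed promoters at ZNF419 (57487711) and ZNF773 (57499915), and are the same at ZNF66. Over the 2000 bases after the annotated start of ZNF66, 2000 were covered in the untreated list, against 1671 and 1613 for vorinostat and 1606 and 1272 for romidepsin, and 2000 in all 4 treated lists when joined. No list could cover more there than the untreated one. For ZNF419 the values were 1716, against 1179 and 1173 for vorinostat and 1214 and 1218 for romidepsin. Joined, they were 1431 and 1173, and 2000 and 1679. At ZNF773 only 899 bases after the start lie inside the locus, and 895 were covered in the untreated list, against 448 and 447 for vorinostat and 425 and 425 for romidepsin, or 873 and 873, and 850 and 851, when joined.

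The whole of ZNF419 lies inside its locus. Of its 8388 bases, 5245 were covered in the untreated list, against 2513 and 2382 for vorinostat and 3272 and 4309 for romidepsin. Joined, it was 3304 and 3267, and 6131 and 6350, so the vorinostat lists lay below the untreated value under both readings, and the romidepsin lists below it as deposited and above it joined. Its last exon, of 3243 bases, which in such genes encodes the zinc fingers, was counted as deposited only. It had 1864 covered bases, against 835 and 266 for vorinostat and 1140 and 1412 for romidepsin. Whether the direction turns there on joining, as it does over the whole gene with romidepsin, was not examined.

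**Figure D5:**
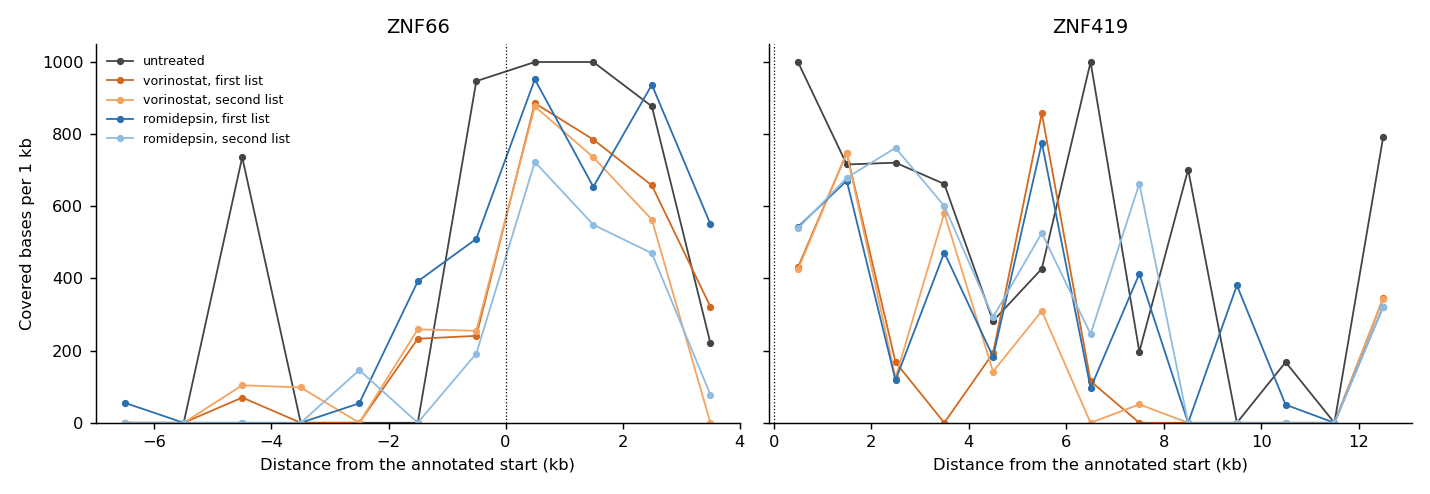
Covered bases per 1 kb as deposited, by distance from the start annotated in GENCODE (kb) at ZNF66 and ZNF419, with 1 line per list and a dotted line at the start. In the 1 kb after the start all 4 treated lists lie below the 1000 bases of the untreated list, at 723 to 952 for ZNF66 and 425 to 543 for ZNF419. The untreated list fills this 1 kb at both genes, so no treated list could lie above it.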

How the data were processed

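The authors deposited 5 lists of H3AcK9 peaks, each peak with a score whose scale is not given in the sources used here, and the score served only as a filter. Reads had been cleaned with SOAPnuke and mapped with SOAPaligner, SOAP2 or BWA, and MACS 1.4.2 called the peaks of each list at a threshold of 1e-05. The labels name hg38, but the last peaks of chromosomes 1 and 19 end at 249238565 and 59109260, beyond the ends of hg38, and contig names are those of hg19, so positions were read as hg19. How spike-in chromatin was used is not given in the sources used here. Peak comparisons by the authors were not used, except for the positions of HERV loci.

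Peaks, covered bases and overlaps (1 bp) were computed in Python 3.11.15 with pandas 2.3.3, NumPy 2.4.6 and SciPy 1.17.1. Biopython 1.88 aligned the promoters, and Matplotlib 3.10.9 drew the figures. The interval functions passed 7 of 7 checks on simulated data with 3000 peaks. With 1 sample per condition no test was made. Regions named were, per interval, the 3 widest untreated peaks, the 2 windows with the highest and the 2 with the lowest factor, the 2 windows with the most untreated coverage, the 3 widest treated peaks without an untreated one, and the HERV loci, and some of each are shown. Members and lists were chosen with earlier results of these data known. Alternatives were each list alone, score and width filters, merging, other windows and other overlap rules.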

Additional observations from a re-analysis of the deposited data

Results flagged for a closer look

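The ERV-V1/V2 interval (chr19:53510000-53560000) was left out of the clusters. As deposited, it had more covered bases in every treated list than in the untreated one, unlike the proximal 19q13.4 interval around it. The study listed the ERV-V2 locus as increased on these same samples, so the direction is not independent evidence. The untreated list had 22466 covered bases there, against 26096 and 24687 for vorinostat, a mean of 25391.5 and a factor of 1.13, and 30267 and 27384 for romidepsin, a mean of 28825.5 and a factor of 1.28. Around it the factors were 0.697 and 0.893. At the untreated resolution the interval had factors of 1.47 and 1.85, beside 0.895 and 1.20 around it, so with romidepsin the surroundings were then higher than untreated too. In the rest of chromosome 19 the factors were 0.911 and 1.21 as deposited, and 1.20 and 1.63 joined. The difference between the interval and its surroundings was not tested, since there was 1 sample per condition.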

How the results depend on the processing

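No paired analysis was possible because there was 1 sample per condition. Of 130 alternative values, 68 stayed near the main value, 59 moved away from it and 3 turned direction. Apart from the gaps and widths given above, the cause was not tested. Values are for vorinostat and then romidepsin. The factor in covered bases of the clusters was 0.815 and 0.989 with peaks merged across 300 bp, 1.02 and 1.25 across 1000 bp, and 0.940 and 1.16 at the untreated resolution. It was 0.521 and 0.531 with a score of at least 1, 0.590 and 0.725 with peaks of at least 300 bp, 0.781 and 0.934 in the first list and 0.683 and 0.809 in the second. The factor in peak number was 1.57 and 1.58 by score, 1.76 and 1.87 merged across 300 bp, 1.33 and 1.13 across 1000 bp, 1.10 and 1.37 by width, 1.06 and 1.07 at the untreated resolution, and 2.40 and 2.73 without 19p12. The ratio of the clusters to the rest, or to the other chromosomes, stayed below 1 in 15 of 15 alternatives for each drug. It was 0.753 and 0.576 by score, and with romidepsin 0.674 by width, 0.756 and 0.679 by list, 0.667 against the short arm, 0.768 against the long arm and 0.912 against the other chromosomes. Lower windows made up 74.0% and 76.7% by score, 15.5% and 4.76% merged across 300 bp, 4.71% and 1.18% across 1000 bp, 4.76% and 1.19% at the untreated resolution, and 4.76% and 1.19% at 2-fold. They were 48.8% in the second vorinostat list and 8.33% in the first romidepsin list. Higher windows made up 15.3% and 27.1% across 1000 bp, 15.5% with romidepsin at the untreated resolution, and 0% with vorinostat in windows of 200 kb. Untreated peaks without a treated peak were 60.8% and 50.9% where a peak covered to under 50% also counted, 33.6% and 26.9% in the first list, 33.9% and 28.8% in the second, 49.3% and 49.1% by score, 43.7% and 35.3% by width, and 30.3% and 23.8% at the untreated resolution. Depth is unknown, so a peak absent from a list cannot be told apart from one too shallow to be called.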
